A study of Rattus norvegicus with 6 samples.

Results

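The Mitosis and G2/M genes are a set of 46 genes that act from the end of DNA replication to the division of the cell. Each was matched by its symbol, and a gene with several probe sets is represented by the probe set with the highest mean log2 signal over all arrays. Of the 46, 27 had a probe set annotated to that gene alone, among 10411 genes measured on the array. The other 19, Ccna2, Bub1, Kif11, Kif20b, Kif23, Kif4a, Tpx2, Prc1, Nusap1, Cenpa, Cenpf, Ttk, Nek2, Cdc25c, Smc2, Ncapg, Ect2, Anln and Hmgb2, were not analysed here. Of the 27 genes, 22 passed a filter on the mean signal over all 6 arrays and were tested among 7163 genes, while Bub1b, Kif20a, Mad2l1, Mki67 and Smc4 were too dim and are described by their signals.

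Entry into mitosis is driven by the kinase Cdk1, which is active only when bound to a cyclin. Cyclin levels build up through the G2 phase and collapse when the anaphase-promoting complex marks cyclin B and securin for degradation. Most of the genes in this set are transcribed late in the cell cycle and are nearly silent in cells that have left it, so their combined mRNA level is widely read as a sign of how many cells in a population are dividing. In the fetal lung the distal epithelium is still proliferating late in gestation, and mechanical forces from breathing movements and lung fluid are known to bear on its growth.

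The cells were type II epithelial cells isolated from rat fetuses on embryonic day 19. The labels give CD rats and both sexes for 5 of the 6 samples and neither for control 1. Cells were plated on silastic membranes with a collagen 1 coat and kept in serum-free medium. Strained cultures received, for 16 h, cyclic strain of 5% for 15 min of each hour, at 60 cycles per min, and a continuous stretch of 2.5% for the remaining 45 min, while control cultures stayed on unstrained membranes for the same time. The 3 strained and 3 control cultures formed 3 pairs, each from its own litter, with 1 array per culture. These are primary cells in culture on an artificial substrate, and the arrays read a whole culture, so fewer dividing cells and less mRNA in each dividing cell cannot be told apart.

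Signals are MAS5 intensities, with array medians from 161.7 to 199.0, and precision is limited by having only 6 arrays. The arrays of pair 1 had a run day of their own, pairs 2 and 3 shared the second one, and pair 3 used a different chip lot. Control arrays ran on fluidics modules 1, 1 and 3 and strained arrays on modules 2, 2 and 4, so within every pair the module and the strain cannot be told apart. The epithelial marker Epcam had signals from 11148 to 13088, and the type II marker Sftpc, which encodes surfactant protein C, from 1111 to 2419. Of 9 type II markers on the array 7 passed the filter, while Sftpa1, from 61.1 to 175, and Napsa, from 43.9 to 186, did not. Of 5 type I markers on the array, Pdpn and Ager were brighter than Sftpc, with signals from 7964 to 10733 and from 5396 to 5980. Hopx, from 1422 to 2296, overlapped Sftpc, and Aqp5, from 311 to 879, and Cav1, from 184 to 384, were dimmer. Other cell types were represented to different degrees. Of 12 leukocyte markers 8 passed the filter, among them the lysozyme gene Lyz2 with signals from 604 to 1576 and Cd74 from 213 to 339, while Ptprc lay below it, between 22.1 and 36.8. Of 6 endothelial markers on the array Eng passed, and Pecam1 lay between 10.0 and 43.3. Of 15 fibroblast and myofibroblast markers 10 passed. Among them Col1a1 and Acta2 were bright, with signals from 3302 to 4650 and from 1922 to 7083. Dcn, Lum, Pdgfra, Pdgfrb and Myh11 lay below the filter, with Lum between 2.6 and 67.4 and Pdgfrb between 23.8 and 72.0.

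The comparison of strained with control cultures asked how the genes of cell division stood after 16 h of strain. As a group their mRNA was lower in the strained cultures. The members were chosen with earlier results of these data known, so the values over all tested genes are set beside them as description. The median log2 difference, strained minus control on the log2(signal + 16) scale, was -0.42 over the 22 tested genes, against -0.01 over all 7163 tested genes. The difference was below 0 for 21 of the 22 genes, where 53.0% of all tested genes had a difference below 0. It was below 0 in each of the 3 pairs for 15 genes, against 16.2% of all tested genes, and no member was higher in all 3 pairs. In 7 genes, Aurkb, Cdc20, Cdk1, Cdkn3, Cks1b, Ncapd2 and Pttg1, every control signal lay above every strained signal, as it did for 3.18% of all tested genes. The filter stood at a signal of 115.5, and Aurkb, Kif2c and Ncapd2 had a control mean above it and a strained mean below it, so they were tested through their control cultures and their differences are given as description. In a count added after the values were seen, among the 12 members left when the dimmest 60% of probe sets were dropped, 9 were lower in every pair, 11 had a difference below 0 and 4 had groups that did not overlap. Of all 5080 genes tested in that way, 825 were lower in every pair and 2599 had a difference below 0. In 2.97% of them every control signal lay above every strained one.

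No single member passed the test. In limma, with litter as the block and Benjamini-Hochberg adjustment over all 9519 tested probe sets, 0 of the 22 reached an adjusted p of 0.05. Of all tested genes 0.349% did, 0.0279% with a lower signal, and of all tested probe sets 0.326%. Cdk1 came closest among the members, with a limma adjusted p of 0.11, and it passed, at 0.018, when the arrays were weighted by their estimated quality. At an unadjusted p of 0.05, 11 of the 22 were lower and none was higher, against 4.73% of all tested genes that were lower. Among the 11 were Aurkb and Ncapd2, which were tested through their control cultures. With the dimmest 60% dropped, a count added after the values were seen, 8 of 12 members were lower at that p. The same held for 271 of all 5080 genes. That count of 11 was 4 with no pair block and 7 with run day as the block. Leaving out pair 1, the comparison within the second run day, gave 12. Leaving out pair 2 gave 6, and leaving out pair 3 gave 8. Over all 9519 tested probe sets 899 passed that p in either direction, against 200 with no pair block and 394 with run day. Array-wide numbers were 842, 476 and 1293 with pair 1, 2 or 3 left out. Both counts fell with no pair block, with run day and with pair 2 left out. They moved in opposite directions with pair 1 or pair 3 left out.

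**Figure D1:**
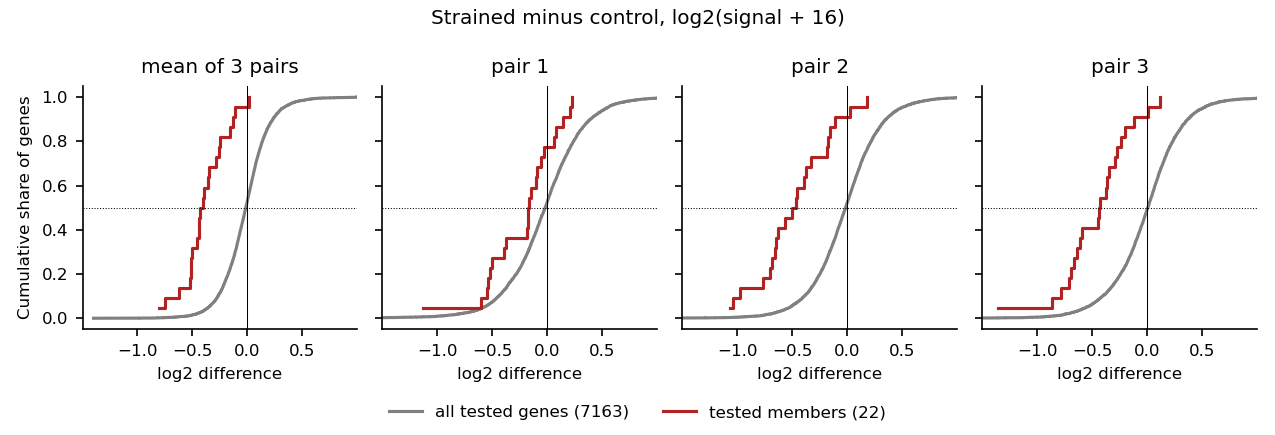
Cumulative share of genes (vertical axis) against the log2 difference, strained minus control, for all 7163 tested genes (grey) and the 22 tested mitosis genes (red), as the mean of 3 pairs and in each pair. The red curve lies to the left of the grey one in every panel, with medians of -0.42, -0.17, -0.48 and -0.43 from left to right.

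The size of the difference was not the same in the 3 litters. The median difference was -0.17 in pair 1, with 17 of the 22 genes lower, -0.48 in pair 2, with 20 lower, and -0.43 in pair 3, also with 20 lower. Over all tested genes the medians of the same pairs were -0.02, -0.02 and 0.01. Within the second run day, pairs 2 and 3 together, the median was -0.48 and 18 genes were lower in both pairs, against 27.4% of all tested genes. Within the first chip lot, pairs 1 and 2, it was -0.32 and 16 genes were lower in both, against 32.5%.

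Unstrained cultures also differed among themselves. When each gene was set against its own mean over the 6 arrays, the median of the 22 genes was 0.20 in control 1, 0.01 in control 2 and 0.28 in control 3, and 0.02, -0.50 and -0.10 in strained 1, 2 and 3. Control 3 had the highest signal of all arrays for 12 of the 22 genes and control 1 for 7. Strained 2 had the lowest signal for 14 and strained 3 for 5. The median of strained 1 lay just above that of control 2, while within each litter the strained culture had the lower median.

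**Figure D2:**
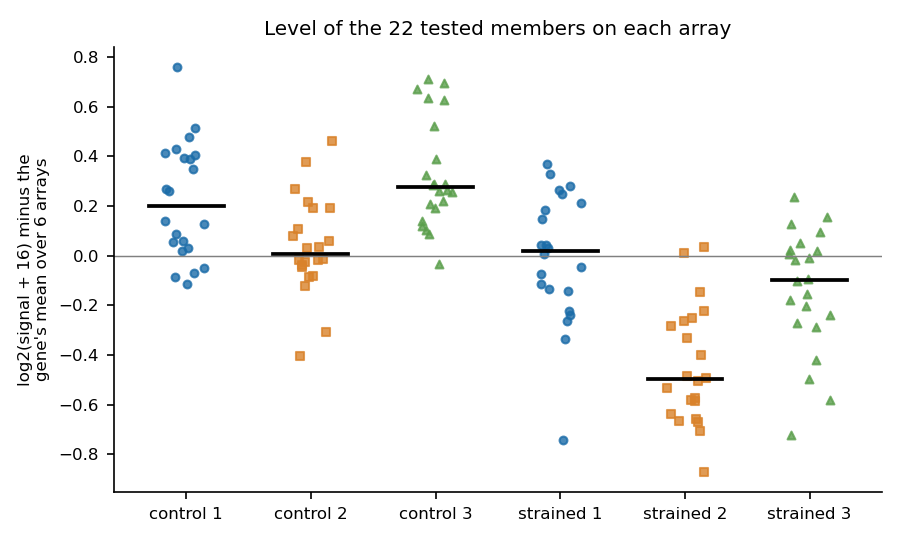
Level of each of the 22 tested mitosis genes on each array, as log2(signal + 16) minus the mean of that gene over the 6 arrays. Points are genes, colours and shapes mark the pair, and black bars are medians, which run from 0.28 in control 3 to -0.50 in strained 2.

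The promoters of these genes are shown because transcription of many G2/M genes is known to run through a pair of short elements, the CCAAT box, bound by NF-Y, and the cell cycle genes homology region, bound by the MuvB core of the DREAM and B-MYB complexes. RefSeq promoter sequences (build GRCr8) were matched for 41 of the 46 genes. The 250 bases before the annotated start were searched on both strands for CCAAT and for TTTGAA or TTCGAA. These letters do not overlap in the promoters printed here. They are given 5′ to 3′ on the strand of the gene for the 6 tested members with the smallest p that had an entry, in lower case with every match in capitals, so ATTGG and TTCAAA are CCAAT and TTTGAA read from the other strand.
Cdk1 (chr20:19265043-19265292, plus strand): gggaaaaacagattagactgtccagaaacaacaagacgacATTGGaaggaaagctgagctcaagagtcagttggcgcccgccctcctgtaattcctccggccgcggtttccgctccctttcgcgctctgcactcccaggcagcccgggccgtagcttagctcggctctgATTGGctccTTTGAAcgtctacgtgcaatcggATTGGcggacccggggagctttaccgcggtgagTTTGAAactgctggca
Ncapd2 (chr4:159677939-159678188, minus strand): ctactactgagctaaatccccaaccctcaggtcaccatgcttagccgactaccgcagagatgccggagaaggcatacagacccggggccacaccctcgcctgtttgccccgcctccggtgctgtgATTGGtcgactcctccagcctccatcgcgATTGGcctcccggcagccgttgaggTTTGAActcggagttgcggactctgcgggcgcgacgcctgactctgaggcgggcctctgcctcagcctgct
Cdc20 (chr5:137255800-137256049, minus strand): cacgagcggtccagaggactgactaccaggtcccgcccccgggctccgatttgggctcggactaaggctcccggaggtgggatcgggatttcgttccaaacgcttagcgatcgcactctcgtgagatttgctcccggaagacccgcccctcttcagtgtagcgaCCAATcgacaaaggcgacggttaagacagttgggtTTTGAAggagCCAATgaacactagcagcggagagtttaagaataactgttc
Pttg1 (chr10:28406327-28406576, minus strand): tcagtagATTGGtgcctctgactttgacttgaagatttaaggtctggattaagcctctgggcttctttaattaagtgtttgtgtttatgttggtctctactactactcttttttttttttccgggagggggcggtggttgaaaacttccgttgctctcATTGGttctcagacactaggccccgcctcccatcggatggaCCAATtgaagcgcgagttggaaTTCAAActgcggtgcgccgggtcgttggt
Ccnb2 (chr8:79981659-79981908, minus strand): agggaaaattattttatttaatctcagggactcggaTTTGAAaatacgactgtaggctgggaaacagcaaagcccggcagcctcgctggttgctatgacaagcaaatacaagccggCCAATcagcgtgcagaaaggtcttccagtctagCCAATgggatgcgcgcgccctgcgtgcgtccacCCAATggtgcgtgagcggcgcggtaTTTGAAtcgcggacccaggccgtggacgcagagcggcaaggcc
Cdkn3 (chr15:22502136-22502385, plus strand): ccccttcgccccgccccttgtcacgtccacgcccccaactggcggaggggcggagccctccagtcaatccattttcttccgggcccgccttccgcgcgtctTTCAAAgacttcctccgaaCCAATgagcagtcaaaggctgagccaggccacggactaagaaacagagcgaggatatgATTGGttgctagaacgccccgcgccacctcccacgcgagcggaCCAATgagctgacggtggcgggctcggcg

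Of the 41 promoters, 35 (85.4%) held a CCAAT box, against 34.3% of the 27457 genes in the promoter table. The homology region was matched in 26 (63.4%), against 17.3%, and both in 24 (58.5%), against 6.22%. Against the 6032 tested genes with an entry, the shares to compare with were 35.8%, 11.4% and 4.54%. Counting the last base before the start as -1, the TTTGAA matches of Cdk1 began at positions -72 and -16, and in Ccnb2 at -214 and -43. In Cdc20 the match at -51 lay between CCAAT boxes at -86 and -41. Among the 19 tested members with an entry, the 13 with a homology region match had a median log2 difference of -0.44 and the 6 without one, Aurka, Ccnb1, Dlgap5, Kif2c, Plk1 and Stmn1, one of -0.35. A match describes these letters in this window and is not a measured binding site.

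**Figure D3:**
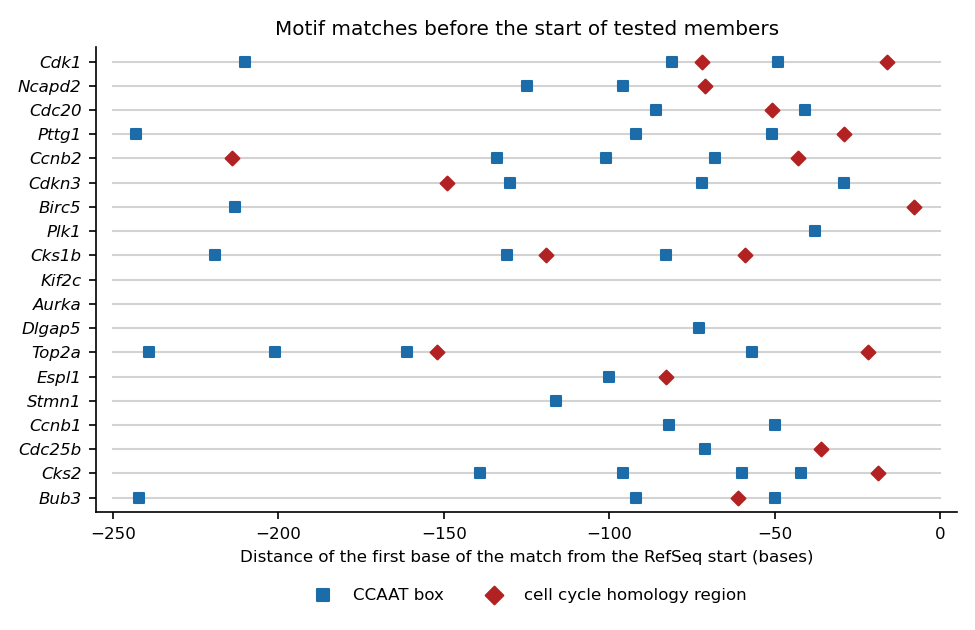
Matches to the CCAAT box (blue squares) and the cell cycle genes homology region (red diamonds) in the 250 bases before the RefSeq start of the 19 tested members with a promoter entry, ordered by p. The horizontal axis is the distance of the first base of the match from the start in bases. Aurka and Kif2c hold neither motif in this window.

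Cdk1 and the genes that act on it directly form the first group. All 7 were tested, none was called, all 7 had a difference below 0 and 5 were lower in every pair, with a median log2 difference of -0.26. Cdk1, the kinase that triggers mitosis, gave signals of 491, 565 and 535 in controls 1, 2 and 3 and of 318, 266 and 350 in strained 1, 2 and 3. The groups did not overlap, and each strained culture was well below its own control. The means were 530 ± 37.1 and 311 ± 42.3 (SD, n = 3), a log2 difference of -0.75 ± 0.16 (SE), or 1.68-fold lower (limma adjusted p = 0.11). The differences in pairs 1, 2 and 3 were -0.60, -1.04 and -0.59.

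Ccnb2, one of the B-type cyclins that activate Cdk1, gave 368, 362 and 488 in the controls and 276, 206 and 375 in the strained cultures. Every pair was lower under strain, but the highest strained culture lay above the lower controls. Its log2 difference was -0.51 ± 0.16 (limma adjusted p = 0.32). Ccnb1, the other B-type cyclin on the array, was nearer to its controls at 239, 241 and 315 against 210, 223 and 272, with a log2 difference of -0.16 and a 95% confidence interval from -0.53 to 0.21. Its second tested probe set gave -0.28 ± 0.21. Whether the 2 cyclins differed in response was not tested.

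Cdkn3, a phosphatase that removes an activating phosphate from cyclin-dependent kinases, gave 262, 257 and 409 in the controls and 230, 152 and 252 in the strained cultures. The groups did not overlap, although strained 3 came within a few units of control 2. The log2 difference was -0.51 ± 0.18 (limma adjusted p = 0.38), with -0.17, -0.70 and -0.66 in pairs 1, 2 and 3. The small Cdk-binding proteins Cks1b and Cks2 were closer to their controls. Cks1b gave 983, 930 and 1020 against 920, 706 and 830, without overlap, a log2 difference of -0.26 ± 0.13 (limma adjusted p = 0.58), and Cks2 gave 853, 519 and 686 against 838, 409 and 690, or -0.12 ± 0.14. For Cks2 the litters differed by more than the cultures within a litter. Cdc25b, a phosphatase that activates Cdk1, was low only in strained 2, at 72.0, where the other 5 cultures lay between 151 and 178, and its differences of 0.21, -1.06 and 0.12 did not share a sign.

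The mitotic kinases and the chromosomal passenger complex had 4 members, which were all tested and all lower in every pair, with a median log2 difference of -0.41. Plk1, the polo-like kinase needed for mitotic entry and spindle assembly, gave 439, 320 and 379 in the controls and 336, 243 and 273 in the strained cultures. Its differences of -0.37, -0.38 and -0.45 were nearly equal in the 3 litters, with a log2 difference of -0.40 ± 0.15 (limma adjusted p = 0.42). The groups overlapped, and litter 2 was lower than litter 1 under both conditions.

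Aurkb, the kinase of the passenger complex, which corrects faulty attachments of chromosomes to the spindle, gave 167, 151 and 149 against 110, 68.7 and 114, without overlap. All 3 strained signals lay below the filter of 115.5 and all 3 control signals above it. The log2 difference was -0.62 ± 0.24 (limma adjusted p = 0.42). Birc5, which encodes survivin, a subunit of the same complex, gave 579, 316 and 327 against 391, 218 and 275. Litter 1 was the brightest under both conditions, so the groups overlapped, and the log2 difference was -0.43 ± 0.16 (limma adjusted p = 0.39). Aurka, the kinase of the spindle poles, gave 160, 184 and 194 against 147, 160 and 106, and most of its log2 difference of -0.36 ± 0.22 came from pair 3, at -0.78.

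The genes of anaphase onset were all tested, and 3 of 4 were lower in every pair, with a median log2 difference of -0.48. Cdc20, the activator that turns the anaphase-promoting complex on once all chromosomes are attached, gave 457, 496 and 419 in the controls and 319, 316 and 308 in the strained cultures. The strained cultures were tightly grouped, with an SD of 5.67 around 314, and all lay below the lowest control. The log2 difference was -0.52 ± 0.15 (limma adjusted p = 0.27). A second bright probe set gave 386, 441 and 397 against 248, 294 and 237, also without overlap, at -0.63 ± 0.15 (limma adjusted p = 0.17). The other 3 probe sets of Cdc20 were below the filter, and none of them was lower in all pairs.

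Pttg1, which encodes securin, the inhibitor of separase, gave 757, 532 and 631 against 521, 381 and 483. The groups did not overlap, and the log2 difference was -0.46 ± 0.14 (limma adjusted p = 0.29). Ube2c, the ubiquitin-conjugating enzyme that works with the anaphase-promoting complex, gave 852, 573 and 725 against 747, 412 and 390. Strained 1 was above controls 2 and 3, and pair 3, at -0.87, differed more than pairs 1 and 2, at -0.19 and -0.46 (log2 difference -0.51 ± 0.16, limma adjusted p = 0.31). Espl1, which encodes separase, the protease that opens the cohesin ring, was at -0.29 ± 0.22 and was slightly higher in pair 1.

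**Figure D4:**
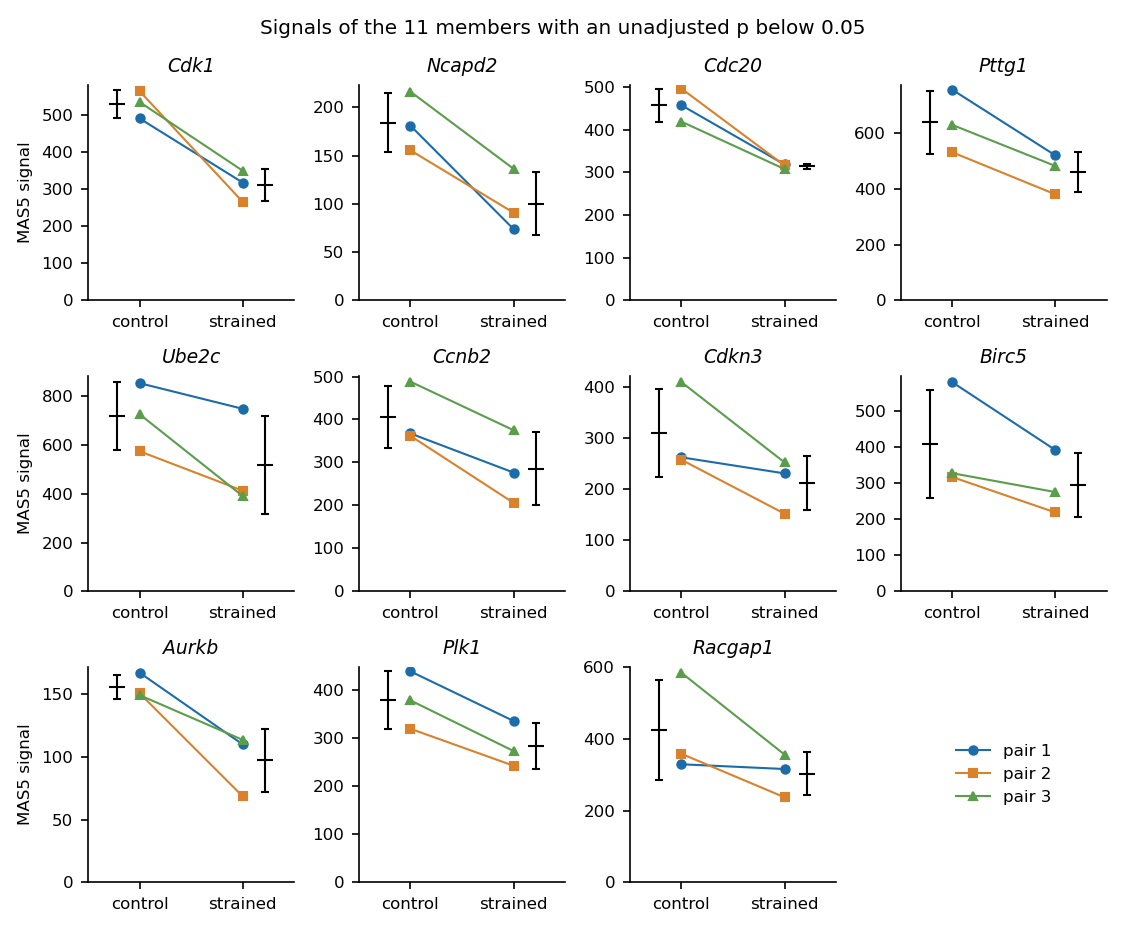
MAS5 signal (vertical axis, from 0) of the 11 mitosis genes with an unadjusted p below 0.05, in control and strained cultures. Lines join the 2 cultures of a pair, and black marks show the mean and SD of each group (n = 3). Every line goes down from control to strained.

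The spindle checkpoint, which holds back anaphase until every chromosome is attached, had 1 tested gene. Bub3, a checkpoint subunit, gave 1928, 2069 and 2245 in the controls and 2137, 2106 and 2066 in the strained cultures. It was the exception among the 22 genes, with a log2 difference of 0.02, which turned to -0.0084 under quantile normalization, and a 95% confidence interval from -0.21 to 0.25. Its differences by pair lay between -0.12 and 0.15. The checkpoint genes Mad2l1 and Bub1b lay below the filter: Mad2l1 gave 127, 76.5 and 154 against 104, 67.8 and 151, and Bub1b lay between 8.0 and 73.7, with differences of 0.06, -1.52 and -1.32 in pairs 1, 2 and 3.

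Among 5 genes of the spindle and of cytokinesis, 4 were tested, all 4 had a difference below 0 and 2 were lower in every pair, with a median log2 difference of -0.38. Racgap1, a subunit of the centralspindlin complex that positions the cleavage furrow, gave 329, 358 and 583 against 315, 237 and 356. Control 3 stood above all other cultures, and the log2 difference of -0.44 ± 0.17 (limma adjusted p = 0.44) was near 0 in pair 1, at -0.06, and -0.56 and -0.69 in pairs 2 and 3. Kif2c, a kinesin that takes microtubules apart at the centromere, was at -0.41 ± 0.25, with 0.08 in pair 1, and its strained mean of 107 lay below the filter. Dlgap5, a protein of the spindle fibres, was at -0.34 ± 0.22. Stmn1, which encodes stathmin, a tubulin-binding protein also made outside mitosis, gave 4735, 4403 and 5609 against 5554, 3890 and 4131, with a log2 difference of -0.13 and a 95% confidence interval from -0.39 to 0.13.

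Kif20a, a kinesin of the central spindle, was dim, at 166, 89.2 and 279 in the controls and 107, 14.4 and 93.4 in the strained cultures. All 3 pairs were lower, although strained 1 and 3 exceeded control 2. With no filter on dim probe sets its log2 difference was -1.26 ± 0.32 (limma adjusted p = 0.44), a size that depends on the pseudocount of 16, since strained 2 lay below that value.

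Of the genes for chromosome structure, Top2a and Ncapd2 were tested and Mki67 and Smc4 were below the filter. Ncapd2, a subunit of condensin, which compacts chromosomes for division, gave 181, 156 and 216 against 73.9, 90.9 and 136. The groups did not overlap, and strained 1 and 2 lay below the filter of 115.5 that every control passed. The log2 difference was -0.81 ± 0.23 (limma adjusted p = 0.26) and was furthest from 0 in pair 1, at -1.13, with -0.68 and -0.61 in pairs 2 and 3. Top2a, the topoisomerase that untangles sister chromatids, gave 186, 96.8 and 216 against 166, 112 and 74.5, and its differences of -0.15, 0.18 and -1.36 did not agree between litters. Its dimmer probe set, below the filter, was at 181, 51.8 and 61.8 against 96.0, 93.3 and 110.

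Mki67, which encodes the proliferation antigen Ki-67, gave 107, 59.7 and 166 in the controls and 81.9, 5.5 and 50.5 in the strained cultures. Each strained culture was below its own control, and with no filter the log2 difference was -1.20 ± 0.36 (limma adjusted p = 0.51), which depends on the pseudocount in the same way. Smc4, another condensin subunit, lay between 5.1 and 40.7 on all arrays and allows no reading at that level. In all, 18 of the 27 genes with a probe set were lower in every pair, 15 of the 22 tested ones and, of the dim ones, Kif20a, Mad2l1 and Mki67.

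**Figure D5:**
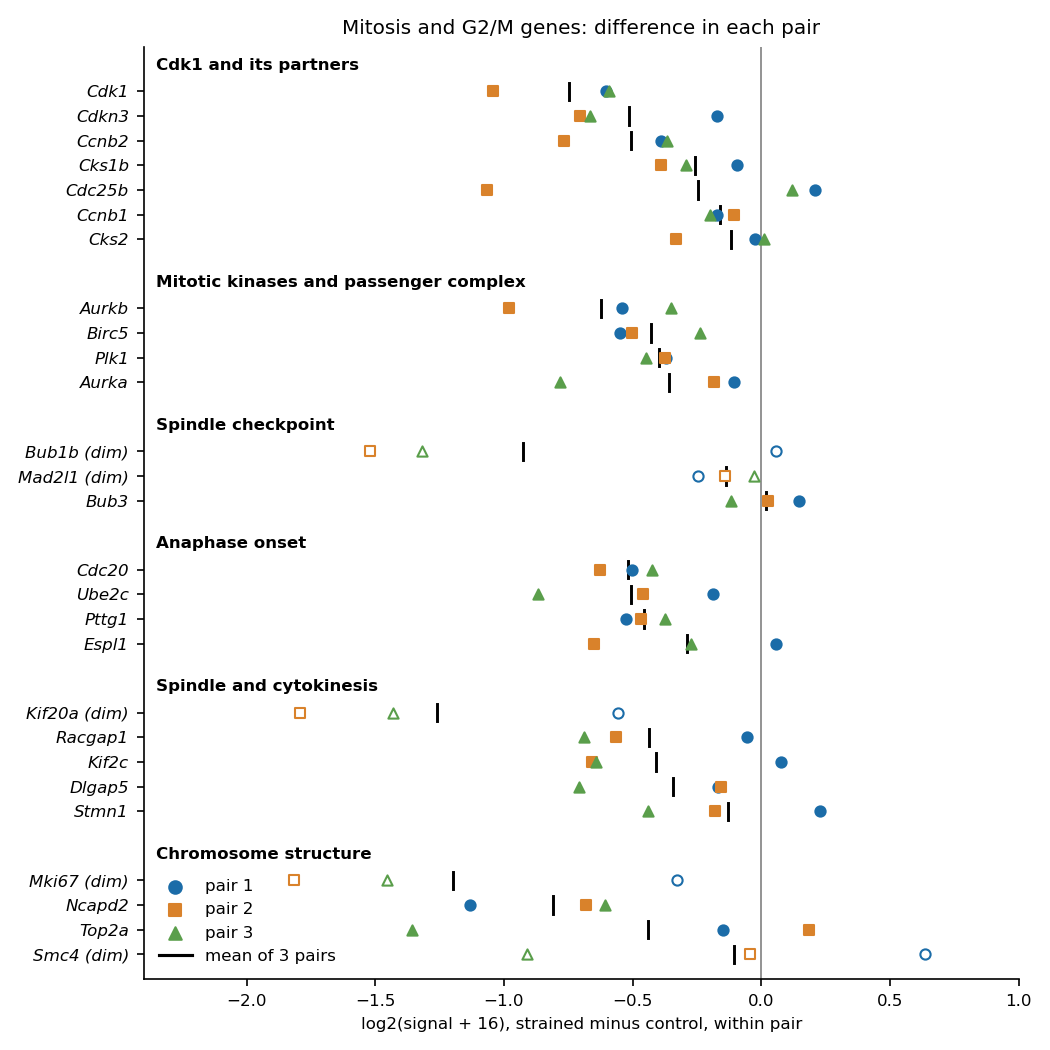
Difference in log2(signal + 16), strained minus control, of 27 Mitosis and G2/M genes in each pair (blue circles, orange squares and green triangles for pairs 1, 2 and 3), grouped by role. Black bars are means of 3 pairs, and open symbols with the word dim mark the 5 genes below the filter. The bars of 26 genes lie left of 0, and that of Bub3 is at 0.02.

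A wider list of mitotic genes and of regulators of mitosis that are not among the 46 was taken along. Of its 91 genes, 53 were on the array and 42 were tested. None was called, 30 had a difference below 0, and 14 were lower and 3 higher in every pair, with a median log2 difference of -0.12. Over all tested genes 53.0% had a difference below 0 and 16.2% were lower in every pair. At an unadjusted p of 0.05, 8 of the 42 were lower and 0 higher, against 4.73% of all tested genes that were lower. Spc24, a subunit of the NDC80 complex that ties chromosomes to microtubules, gave 329, 270 and 316 against 233, 153 and 119, without overlap, and was at -0.84 ± 0.20 (limma adjusted p = 0.16). Cdca3, which encodes a trigger of mitotic entry, was at -0.51 ± 0.14, the minus-end kinesin gene Kifc1 at -0.51 ± 0.16 and Tacc3, of the spindle, at -0.54 ± 0.21, with limma adjusted p from 0.24 to 0.45.

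Of 33 tested genes of G1/S control and DNA replication, the phases before mitosis, none was called. A difference below 0 was seen for 25 and one above 0 for 8, and 11 were lower in every pair, with a median of -0.17. Of all tested genes 53.0% were below 0 and 16.2% lower in every pair. Their medians in pairs 1, 2 and 3 were -0.13, -0.20 and -0.18 for the 33 genes. At an unadjusted p of 0.05 in limma, 5 were lower and 0 higher, against 4.73% of all tested genes that were lower. Fen1 was at -0.55 ± 0.16, Mcm5 at -0.54 ± 0.16, Ccne1 at -0.45 ± 0.16 and Mcm3 at -0.46 ± 0.19 (limma adjusted p from 0.28 to 0.47). Whether the 2 sets differed was not tested.

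Inhibitors and checkpoint genes of the cycle showed no common direction. Of 15 tested, none was called, 8 had a difference below 0 and 7 above, with a median of -0.0020 that turned to 0.03 when arrays were scaled to a common median. The p53 targets Ccng1 and Mdm2 lay on opposite sides, at -0.36 ± 0.12 and 0.52 ± 0.21 (limma adjusted p of 0.37 and 0.47). Chosen after their values were seen, Cdkn1a, which encodes the Cdk inhibitor p21, was at 0.07 ± 0.09, Mybl2, which encodes B-MYB, at -0.27 ± 0.21, and the mitotic transcription factor gene Foxm1 was below the filter with signals from 18.5 to 125.

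Markers of other cell types were lower in some of the same cultures. Of 15 fibroblast and myofibroblast markers 10 were tested and 9 had a difference below 0, 6 of them in every pair, with a median of -0.33. Tagln was the brightest of these markers, with signals from 11730 to 15049, and weighed most in their sum. Their summed signal ran from 27654 to 33562 in the controls and from 22009 to 31134 in the strained cultures. By pair their medians were -0.64, -0.17 and -0.22, where those of the mitosis genes were -0.17, -0.48 and -0.43, so pair 1 had the lowest median for the markers and the highest for the mitosis genes. Acta2 was at -0.66 ± 0.12 (limma adjusted p = 0.051) and Col1a1 at 0.18 ± 0.09. Of 12 leukocyte markers 8 were tested and 7 had a difference below 0, with medians of -0.48, -0.35 and 0.16 by pair and a summed signal from 3084 to 3825 in controls and from 2287 to 3954 in strained cultures. Of the endothelial and erythroid markers only 1 and 2 passed the filter. The endothelial Eng was at -0.24 ± 0.44. The erythroid Hbb was at -1.13 ± 0.35 (limma adjusted p = 0.31), with -1.98, -1.64 and 0.23 in pairs 1, 2 and 3, and Slc4a1 was at 0.58 ± 0.24 (limma adjusted p = 0.47). Type II markers had a median of -0.16 over 7 tested genes, with members on both sides of 0. Sftpc was at 0.57 ± 0.12 and the phosphate transporter gene Slc34a2 at -0.77 ± 0.20 (limma adjusted p of 0.12 and 0.22), each in the same direction in all 3 pairs. Type I markers had a median of -0.04 over 5. General epithelial markers had a median of 0.02 over 8, which was -0.00080 under quantile normalization. The part of these cell types in the lower mitotic signal was not tested.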

How the data were processed

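RNA of 3 strained and 3 control cultures was read on 6 rat E230A arrays, 1 per culture. The authors deposited linear intensities, 1 per probe set and array, computed in MAS5 5.0 according to the submitters' processing notes, and had scaled the arrays, since every 2% trimmed mean lay between 500.129 and 500.148. Signals are printed as deposited. For the tests they were scaled to a trimmed mean of 500, transformed as log2(signal + 16), and fitted in limma 3.58.1 (R 4.3.3) with pair and group as terms and a variance trend on intensity. The 57 control probe sets and the dimmest 40% of the other 15866, below a signal of about 115.5, were left out. Adjusted p-values cover all 9519 tested probe sets. Their variances rest on 11 degrees of freedom, of which 9 are borrowed from other probe sets.

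Pairs follow the replicate numbers in the titles, and the design text gives each pair its own litter. Deviations of same-numbered arrays correlated at 0.51, 0.47 and 0.44, and the remaining combinations from -0.35 to -0.12, though run day and chip lot were also common to each pair. Deviations were taken from the mean of each group, so positive values for same-numbered arrays force the remaining ones below 0 on balance. The members and lists were chosen with earlier results of these data known. All members are accounted for, members with an unadjusted p under 0.05 are given in full, and up to 4 genes of each other list are named by smallest p, with fixed markers. Symbols came from the platform annotation, and 12748 of 12783 single-symbol probe sets were found by gene ID in RefSeq. Scripts were tested on simulated data.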

Additional observations from a re-analysis of the deposited data

How the results depend on the processing

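The count of probe sets called over the whole array, 31, was 0 with no replicate block (200 at an unadjusted p of 0.05 in limma), 1 with run day as the block, 5 with no filter on dim probe sets, 1 with no variance trend and 103 with array weights. It ran from 9 to 52 with 1 pair left out. The count of mitosis genes called stayed at 0 in 15 of 16 other settings and was 1 with array weights, where Cdk1 was at -0.85 (limma adjusted p = 0.018). The cause was not tested. In its other settings the limma adjusted p of Cdk1 ran from 0.069 without pair 1 to 1.00 with no replicate block. With the dimmest 60% dropped, 9 of 12 tested members were lower in all pairs, a smaller count because fewer genes were tested. The median log2 difference of the set stayed below 0 in all 17 other settings, from -0.48 without pair 1 to -0.32 without pair 3. Changing the block or the variance trend cannot alter this estimate in a balanced design, and it stayed at -0.42 there. Each of the 11 fully described genes kept a difference below 0 in every setting in which it was tested. These genes were picked by p and were lower in every pair, so only another scaling of the arrays could have changed their sign. Signals near the filter and below it are the least certain, and no detection calls were used.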
